A study of Homo sapiens with 16 samples.

Results

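The genome intervals described here are those where CTCF signal was lowest after hyperosmotic stress relative to vehicle. They come from a CUT&Tag experiment in HEK293, a human embryonic kidney cell line, carrying an eGFP-YAP genotype. CUT&Tag uses an antibody to bring a transposase to chromatin, so that DNA beside the antibody's target is cut and sequenced. There were 4 targets, namely CTCF, the cohesin subunit RAD21, the histone mark H3K27ac and eGFP-YAP, the last read with a GFP antibody and called YAP1 here. Each target had 2 libraries from vehicle-treated cells and 2 from cells given 200 mM sorbitol for 1 h, which makes 16 libraries in 8 groups. The series text gives serum starvation of this line ahead of sorbitol. In the table, vehicle columns carry a start-of-course time label, while the sample labels call the vehicle samples collected in parallel. Any difference in time between the groups cannot be told apart from treatment. Nothing says that replicates came from separate cultures, so p-values measure only the spread between these libraries, which may be technical. No control-antibody library entered these comparisons.

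An interval was eligible if it lay on chromosomes 1 to 22 or X, outside the YAP1 gene, and held 20 or more counts in each CTCF vehicle library. Signal was expressed as CPM, an interval's count scaled to the library's total over the 73975 intervals that met the first 2 conditions. The strong-loss intervals are the eligible ones where the mean sorbitol CPM of CTCF plus 0.5, divided by the mean vehicle CPM plus 0.5, was at most 0.25. They number 3732 of 27194 eligible intervals, or 13.7%, and of 74404 intervals in the table. The other 23462 eligible intervals serve as the comparison below. Because CTCF values chose the intervals, they are given as a description without a test.

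CTCF is a zinc-finger protein that binds a long, partly degenerate DNA sequence and acts as an insulator between regulatory domains. The ring-shaped cohesin complex, of which RAD21 is a subunit, extrudes chromatin loops and is halted where CTCF is bound, so the anchors of many loops carry both. H3K27ac marks active promoters and enhancers. YAP is a coactivator of the Hippo pathway that reaches DNA through TEAD factors and responds to mechanical and osmotic cues.

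The sequences of a few intervals show the range of CTCF-like DNA involved. Each run of 60 bases is the hg38 reference, with the best match to the 14-base CTCF consensus in capitals, written for the strand given. The first 3 lie in uniquely mappable strong-loss intervals with high vehicle CTCF and at most 1 mismatch to the consensus. The next 3 lie in eligible intervals with high vehicle CTCF where the CTCF ratio stayed between 0.9 and 1.1.
CYP2W1, strong loss, chr7:993234-993293, plus strand: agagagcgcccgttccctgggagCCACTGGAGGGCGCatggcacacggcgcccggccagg
MCOLN2, strong loss, chr1:84944827-84944886, plus strand: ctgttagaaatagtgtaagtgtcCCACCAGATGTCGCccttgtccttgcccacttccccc
PXN, strong loss, chr12:120228489-120228548, plus strand: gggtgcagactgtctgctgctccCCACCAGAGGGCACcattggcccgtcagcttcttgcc
ENSG00000271792, kept, chr5:139765847-139765906, minus strand: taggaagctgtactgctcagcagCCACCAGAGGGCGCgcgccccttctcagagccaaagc
ENSG00000289962, kept, chr1:225475067-225475126, plus strand: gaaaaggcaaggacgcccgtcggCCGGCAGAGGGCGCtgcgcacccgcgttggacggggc
DNAJC22, kept, chr12:49342569-49342628, minus strand: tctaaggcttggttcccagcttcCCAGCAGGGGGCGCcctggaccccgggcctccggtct

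The interval near CYP2W1, a cytochrome P450 gene, is intergenic, and those in MCOLN2, which encodes an endolysosomal cation channel, and PXN, which encodes the focal adhesion protein paxillin, are intronic. Their CTCF ratios were 0.210, 0.196 and 0.228. The kept intervals had ratios of 0.904, 1.02 and 0.987. The PXN match has 0 mismatches to the consensus, so a full consensus match alone did not mark the kept intervals. Strong-loss intervals at CCDC142 and near ENSG00000287338 were left out of the print. They had slightly more vehicle CTCF than PXN, at 117.3 and 104.2 against 103.1 CPM, and 1 mismatch each.

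A second set of sequences comes from 3 groups of strong-loss intervals on the X chromosome, in the noncoding RNA gene FIRRE, in DANT1 and DANT2, the noncoding transcripts beside the DXZ4 macrosatellite, and in NBDY. These loci were singled out after their values were seen, because they held the most strong-loss intervals in close succession. The capitals again mark the best consensus match. The 6 printed were picked because their matches share the letters CCNCNNGATGGCA, as do 12 of the 24 best matches in these groups. In FIRRE the commonest best match was another, CCAGCAGCTGCCAG, in 3 of 13 intervals, and the 4 FIRRE intervals with the most vehicle CTCF, at 163.8, 140.1, 115.9 and 111.3 CPM, have best matches without these letters.
FIRRE, chrX:131705023-131705082, plus strand: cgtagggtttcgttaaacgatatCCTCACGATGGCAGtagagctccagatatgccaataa
FIRRE, chrX:131711101-131711160, plus strand: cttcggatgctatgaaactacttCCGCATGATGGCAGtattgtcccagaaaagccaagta
FIRRE, chrX:131813360-131813419, minus strand: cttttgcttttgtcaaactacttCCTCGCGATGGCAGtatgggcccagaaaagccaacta
DANT1, chrX:115893072-115893131, plus strand: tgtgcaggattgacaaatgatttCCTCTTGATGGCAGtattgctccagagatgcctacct
DANT2, chrX:115958284-115958343, plus strand: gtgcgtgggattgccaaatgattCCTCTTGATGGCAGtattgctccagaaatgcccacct
NBDY, chrX:56779273-56779332, plus strand: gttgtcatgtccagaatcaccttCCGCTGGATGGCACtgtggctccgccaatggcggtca

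The NBDY sequence occurs letter for letter in 3 strong-loss intervals of that gene. These X-linked matches carry 2 or 3 mismatches to the consensus.

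Over the intervals used for CPM, CTCF held 3616235 and 2475732 counts in the vehicle libraries and 1523792 and 1565071 in the sorbitol libraries. RAD21 was the shallowest target, with 1341257 and 602195 counts with vehicle and 614958 and 520367 after sorbitol. In the strong-loss intervals the median count of CTCF was 57 and 38.5 in the vehicle libraries and 3 in each sorbitol library. The median count of RAD21 was 17 and 6 in the vehicle libraries and 2 in each sorbitol library, which limits what can be said of single intervals. The table holds no RNA, so cell identity was not checked against marker genes.

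Within each library, the counts of the strong-loss intervals were divided by those of the other eligible intervals, a measure that needs no scaling between libraries and no filter. For CTCF this was 10.2% and 9.98% in the vehicle libraries and 1.42% in each sorbitol library, which restates the rule. The median ratio of the strong-loss intervals was 0.172, the lowest was 0.0201, and in 902 intervals CTCF was lower by 8-fold or more with the same 0.5 CPM added. Of the 3732, 118 had 0 CTCF counts in both sorbitol libraries, and 2325, or 62.3%, met the 0.25 limit in each replicate number taken alone. Just inside the limit, an intron of ANO2 had 51 and 30 CTCF counts in the vehicle libraries and 3 and 6 after sorbitol. Just outside it, an intron of ACTR6 had 23 and 24 counts and then 4 and 1.

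RAD21 was lower in the same intervals. Its counts in the strong-loss intervals were 8.32% and 6.78% of those in the other eligible intervals with vehicle, and 2.352% and 2.311% with sorbitol. The groups did not overlap, and the ratio of the means was 0.309, a 3.24-fold lower share (n = 2 libraries per group). H3K27ac went from 1.95% and 1.91% to 2.29% and 2.23%. Against other eligible intervals of the same GC bin its ratio was 1.001, 0.992 and 1.018 in the 3 bins below 55% GC and 1.104 and 1.158 in the 2 above, and among intervals whose vehicle H3K27ac was not at or above the median of all intervals in both libraries it was 0.927. YAP1 was at 2.18% and 2.15% and then at 1.504% and 1.459%. Such shares weigh each interval by its counts. Taken interval by interval, with 0.5 CPM added, the median RAD21 ratio of sorbitol to vehicle was 0.333, against 0.7286 in the other eligible intervals. For H3K27ac it was 1.137 against 1.05. For YAP1 it was 0.7775 against 0.6854, the opposite order to the YAP1 share. For 2 against 2 libraries an exact permutation test cannot go below p = 0.33, so none is given. The YAP1 difference was not present in unique sequence: among intervals with at least 90% unique 31-base words, its log2 ratio was 0.01 in place of -0.55, while that of RAD21 was -1.46 in place of -1.70.

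**Figure D1:**
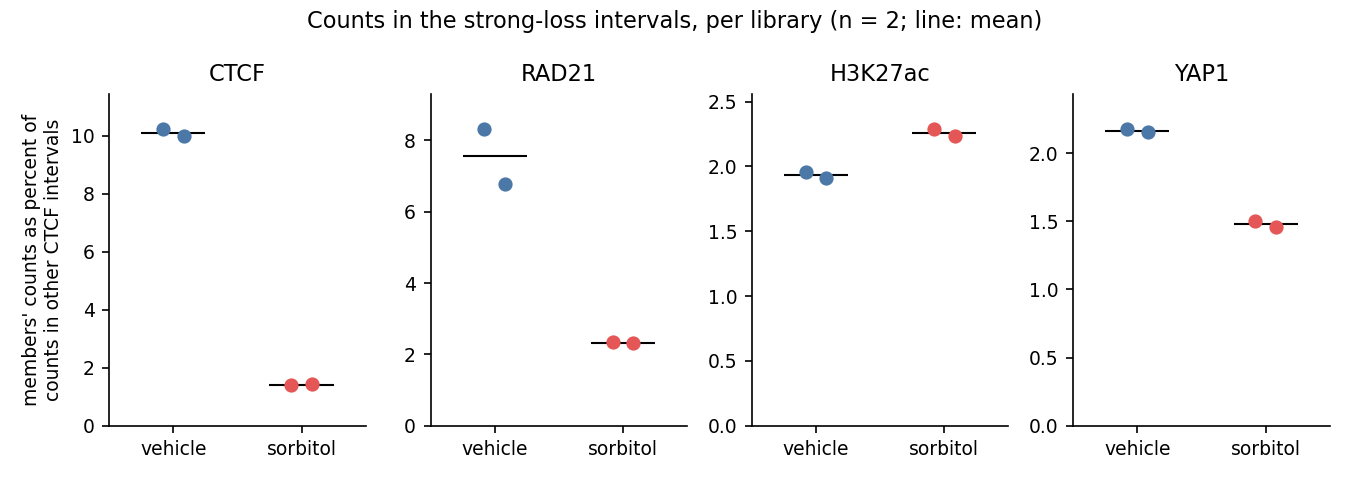
Counts of the 3732 strong-loss intervals as a percent of counts in the other eligible intervals, with 1 point per library and a line at the mean of 2. The 2 sorbitol points lie below the vehicle points for CTCF, RAD21 and YAP1 and above them for H3K27ac.

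The strong-loss intervals lay mostly away from promoters. Only 618 of them, or 16.6%, were within 1 kb of a GENCODE start site, against 51.3% of the other eligible intervals. Another 1521 (40.8%) were intronic, 1313 (35.2%) intergenic and 280 (7.50%) in other exons. Seen from the eligible set, 4.88% of promoter intervals were strong-loss intervals, compared with 15.1% in exons, 23.3% in introns and 21.3% between genes. The median distance to a start site was 7064 bp, against 808 bp for the other eligible intervals.

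They were also narrow and poor in GC. Median width was 493 bp against 693 bp, median GC content 47.8% against 58.3%, and there were 1.31 CpG dinucleotides per 100 bases against 3.81. The share of eligible intervals that showed strong loss was 33.1% where GC was below 45%, and then 24.4%, 17.2% and 9.32% in steps of 5 points, down to 3.17% at 60% or more. By chromosome, the share was lowest on 19 (81 of 1651, or 4.91%) and highest on chromosome 13 (80 of 380, or 21.1%), with 156 of 906 (17.2%) on X.

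**Figure D2:**
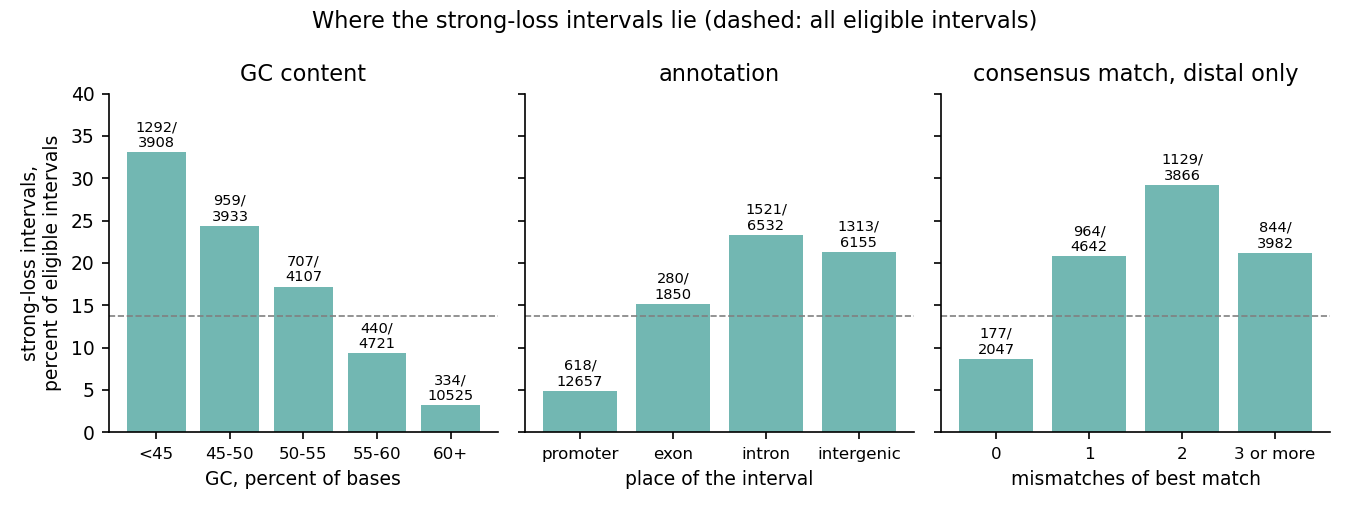
Percent of eligible intervals that showed strong CTCF loss, by GC content, by annotation and, for intervals over 1 kb from a start site, by mismatches of the best consensus match. The dashed line is the 13.7% of all eligible intervals, and the bars fall from 33.1% to 3.17% as GC rises.

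Most strong-loss intervals held a recognisable CTCF sequence, but seldom a full one. Away from promoters, 72.9% of 3114 strong-loss intervals and 72.5% of 11423 others had a match with at most 2 mismatches in the central 300 bases, on either strand. A match without mismatches was found in 5.68% and 16.4% respectively. For at most 1 mismatch the shares were 36.6% and 48.6%. Among all 73975 intervals, 4.43% had a full match and 35.6% one with at most 2 mismatches. Strong loss was seen in 8.65% of distal eligible intervals with a full match, 20.8% with 1 mismatch, 29.2% with 2 and 21.2% with 3 or more.

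Position by position, counted from the 5′ end of the consensus, the largest gap was at position 1, where 75.7% of distal strong-loss matches and 85.7% of the others had the consensus base. Positions 11 and 12 followed, at 86.0% against 91.5% and 78.2% against 83.3%. At positions 7 to 9 the match was between 96.5% and 99.4% in both sets. A CpG dinucleotide, the substrate of DNA methylation, lay inside the match in 21.0% of the 2270 distal strong-loss intervals with at most 2 mismatches. In the 8285 others of that kind the share was 42.1%. These sets were not matched for GC content or for number of mismatches, and methylation was not measured.

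**Figure D3:**
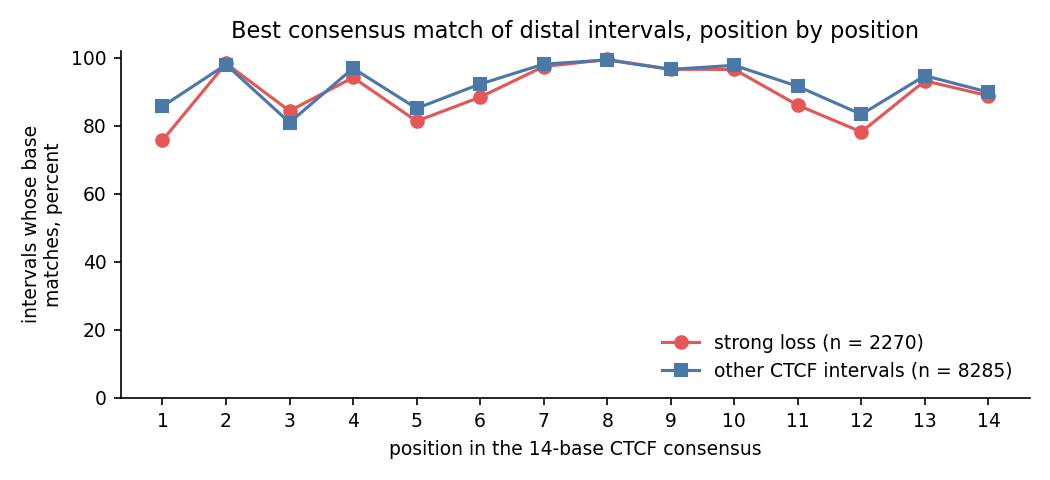
Percent of distal intervals whose best match carries the consensus base at each of 14 positions, for 2270 strong-loss and 8285 other intervals with at most 2 mismatches. The curves lie close together except at positions 1, 11 and 12, where the strong-loss set is lower.

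Other short motifs were counted in the same 300-base windows on both strands. The GC box GGGCGG of SP factors, which can overlap a CTCF match, was in 12.5% of strong-loss intervals, 41.4% of the others and 26.6% of all 73975. The TEAD letters GGAATG were in 16.6%, 12.9% and 14.4%. The AP-1 letters TGANTCA were in 8.39%, 5.29% and 8.43%. Among distal intervals alone the GC box was in 9.47% of the strong-loss set and 19.6% of the others, and the TEAD letters in 16.7% and 15.9%. A match of these letters describes the sequence and does not show binding.

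Before sorbitol, the strong-loss intervals carried less H3K27ac than the others, while the order in CTCF per kilobase differed between kinds of place. Their median vehicle CTCF was 15.5 CPM against 19.2 CPM in the others. Per kilobase, this was 32.2 against 29.2 CPM over all places, 31.9 against 37.7 CPM away from start sites, and 33.6 against 18.98 CPM at promoters. Median RAD21 per kilobase was 24.98 and 20.8 CPM in the vehicle libraries, against 22.5 and 19.2 in the others. An interval was called acetylated when both vehicle libraries reached the median of all intervals. This was met by 24.8% of the strong-loss set, against 64.3% of the others and 45.9% of all 73975. By the same rule for RAD21, 73.0% against 81.8% carried cohesin over all places. Away from start sites the cohesin shares were nearly equal, at 71.6% against 71.3%, while at promoters they were 80.1% against 91.75%. Median vehicle YAP1 was 2.84 CPM against 11.3 CPM. The gap in acetylation was also present within each kind of place: 49.4% of strong-loss promoters were acetylated against 89.6% of other promoters, and 19.97% of distal strong-loss intervals against 37.5%. The call takes no account of width, and strong-loss promoters were narrower, at a median of 543 against 1117 bp. Per kilobase, median vehicle H3K27ac was 5.73 against 36.4 CPM at promoters and 3.16 against 4.14 CPM at distal intervals. The gap was smaller below 45% GC, at 8.51% against 11.6%, than at 60% or more, at 67.7% against 91.9%. Among distal intervals with 30 CPM or more of vehicle CTCF it was 59.6% against 64.1%.

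RAD21 libraries took no part in the choice of intervals, so RAD21 was tested. Both sorbitol libraries were below both vehicle libraries in 2678 strong-loss intervals (71.8%) and above them in 26 (0.697%), where 31.5% and 10.8% of all 73975 intervals did so. In the other eligible intervals the shares were 39.6% and 11.8%. The edgeR quasi-likelihood test on the 4 RAD21 libraries could be run for 1040 strong-loss intervals that passed its count filter. It called 110 lower and 0 higher at an adjusted p under 0.05, against 1.45% lower and 3.34% higher among the 17011 intervals tested. At an unadjusted p under 0.05, 589 were lower and 0 higher, against 12.1% lower and 11.7% higher of all intervals tested. Since an interval could pass that filter through its vehicle libraries alone, the same test was run without it: 165 of 3730 were called lower and 0 higher, with 0.533% of all tested intervals lower. Without the filter the median log2 fold change was -1.44 in the strong-loss intervals and -0.27 in all intervals tested. Away from start sites it was -1.489 in the strong-loss intervals and -0.6494 in the other eligible ones. There, 4.306% and 1.217% of them were called lower. DESeq2 gave an adjusted p for 85 strong-loss intervals and called 19 lower and 0 higher, against 1.3% lower of the 5141 intervals with an adjusted p. GC-corrected offsets left 39 lower (3.75%) and 0 higher, against 0.676% lower of all tested, and moved the median log2 fold change of the strong-loss intervals tested from -1.58 to -1.05. Leaving out vehicle library 1 or 2 gave 51 or 42 calls, and leaving out sorbitol library 1 or 2 gave 201 or 186, with 0 higher in each.

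RAD21 followed CTCF in steps. Over the 902 intervals with CTCF lower by 8-fold or more, summed RAD21 CPM was 3.65-fold lower with sorbitol, and over the other 2830 strong-loss intervals 2.86-fold lower. In the eligible intervals with ratios of 0.25 to 0.5 it was 2.04-fold lower, with 0.5 to 1 it was 1.31-fold lower, and above 1 it was 1.38 times the vehicle value. The order was the same away from start sites and within 1 kb of them. Against other eligible intervals of the same GC bin, the RAD21 share was 4.60-fold lower below 45% GC, 3.69-fold at 45 to 50%, 2.67-fold at 50 to 55%, 2.201-fold at 55 to 60% and 2.68-fold at 60% or more. The YAP1 share was also lower at low GC, by 2.96-fold, 2.82-fold and 1.51-fold in the 3 bins below 55%. It was 1.07 times the vehicle value at 55 to 60% and 1.20-fold lower at 60% or more. Among distal intervals with 0 or 1 mismatch to the consensus the RAD21 share was 1.66-fold and 1.67-fold lower. With 2 mismatches it was 2.19-fold lower, and with 3 or more 3.77-fold lower. Within promoters the share was 3.02-fold lower, and in intervals without the acetylation call it was 1.95-fold lower.

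**Figure D4:**
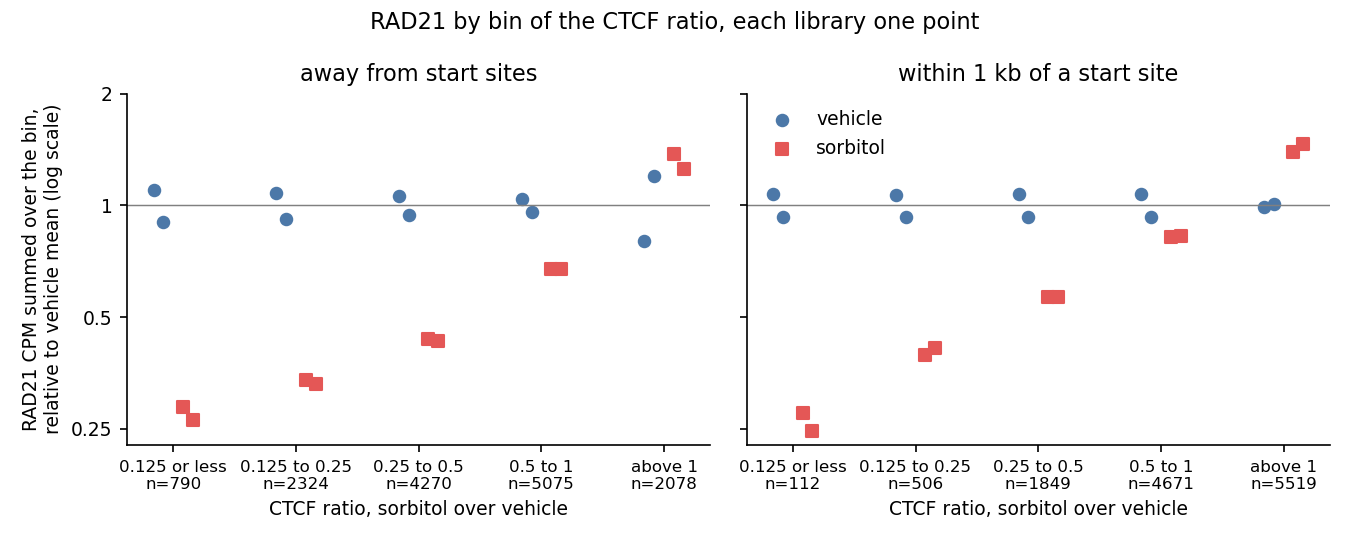
RAD21 CPM summed over each bin of the CTCF ratio and divided by its vehicle mean, on a log axis, with 1 point per library, for distal and promoter intervals. The 4 sorbitol points of the bins at 0.25 or less lie below both vehicle points in each panel, and the points above a ratio of 1 lie above them.

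Single sites with at least 90% unique sequence and the most vehicle RAD21 among the calls were added to the description after their values were seen. In an intron of FGD2, which encodes a Cdc42 exchange factor (chr6:37018069-37018994), CTCF was 222 and 254 CPM with vehicle and 54.5 and 48.6 CPM with sorbitol. RAD21 there was 121.5 and 144.5 CPM and then 45.5 and 46.1 CPM, a log2 fold change of -1.30 (SE 0.31, edgeR adjusted p = 0.033). In intergenic DNA 8986 bp from a start site of LIF, a cytokine gene (chr22:30255745-30256451), RAD21 went from 102.1 and 89.7 CPM to 8.13 and 30.8 CPM (log2 fold change -2.12, SE 0.46, edgeR adjusted p = 0.023). The LIF interval would not have passed the count filter for RAD21 on its sorbitol libraries. No vehicle value overlapped a sorbitol value at either site.

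The same held 9409 bp from the start of LINC01348 (chr1:235083629-235084320), where CTCF was 64.7 and 65.4 CPM and then 1.97 and 5.75 CPM. RAD21 at that site was 102.1 and 69.7 CPM and then 16.3 and 7.69 CPM, with an edgeR adjusted p of 0.0062 and a log2 fold change of -2.58 (SE 0.45). That interval passed the count filter for RAD21 through its vehicle libraries alone, and its result without the filter is not given here. H3K27ac also fell there, by 1.01 on the log2 scale (SE 0.26, edgeR adjusted p = 0.0036).

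RAD21 also fell at the promoters of MAP3K5, TIPARP and STK10, and H3K27ac rose at MAP3K5 and TIPARP. At MAP3K5, which encodes the stress-activated kinase ASK1 (chr6:136791264-136793394), CTCF was 168 and 145 CPM and then 37.4 and 37.7 CPM. RAD21 was 94.7 and 64.8 CPM and then 24.4 and 21.1 CPM (log2 fold change -1.58, SE 0.38, edgeR adjusted p = 0.035). H3K27ac was 104 and 94.5 CPM and then 135 and 140 CPM, higher by 0.33 on the log2 scale (edgeR adjusted p = 0.001). TIPARP, a gene of the poly-ADP-ribose polymerase family (chr3:156674021-156675823), had RAD21 of 88.7 and 68.1 CPM and then 26.0 and 23.1 CPM (edgeR adjusted p = 0.044), and H3K27ac higher by 0.33 (adjusted p = 0.004). STK10, a serine/threonine kinase gene (chr5:172186991-172189083), had RAD21 of 91.0 and 93.0 CPM and then 27.6 and 28.8 CPM (edgeR adjusted p = 0.03), with an H3K27ac log2 fold change of -0.03 (SE 0.08, edgeR adjusted p = 0.79).

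The largest fitted RAD21 falls were at sites with 0 sorbitol counts. In an intron of PPTC7, a mitochondrial phosphatase gene (chr12:110552195-110552800), RAD21 counts were 47 and 27 with vehicle and 0 in both sorbitol libraries. Against 3 counts per sorbitol library this was at least 7.51-fold lower (edgeR adjusted p = 0.004). In an exon of CCDC80, a gene for a secreted protein (chr3:112642807-112643315), the counts were 49 and 22 and then 0 and 0, or at least 6.87-fold lower (adjusted p = 0.0045). The promoter of the noncoding gene ENSG00000264289 on chromosome 18 had 33 and 21 counts and then 0 and 0, or at least 5.59-fold lower (adjusted p = 0.011). These 3 intervals passed the count filter through their vehicle libraries alone. In the edgeR fit without that filter their adjusted p-values were 1.74e-06, 6.43e-06 and 0.000169, and DESeq2 gave them none.

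The intervals with the highest vehicle signal of all were in part repeated DNA. At chrX:323373-324073, in the pseudoautosomal region 2383 bp from LINC00685, CTCF was 540 and 551 CPM and then 120 and 56.2 CPM. RAD21 there was 688 and 701 CPM and then 210 and 101.9 CPM (log2 fold change -1.91, SE 0.33, edgeR adjusted p = 0.0059). None of its 31-base words is unique in hg38, so reads cannot be placed there with certainty. The same holds for chr21:8193500-8194605 and chr21:8376471-8377673, where RAD21 log2 fold changes were -0.97 and -1.10 (adjusted p = 0.077 and 0.061). The promoter of GNAI2, which encodes an inhibitory G protein subunit (chr3:50226051-50228282), had CTCF of 373 and 365 CPM and then 86.6 and 97.1 CPM. Its RAD21 log2 fold change was -0.77 (SE 0.30, edgeR adjusted p = 0.15).

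Of 618 strong-loss promoters, those with the most CTCF at protein-coding genes were GNAI2, MAP3K5, CCDC142, ZNF219, ENSG00000256950 and YARS2. YARS2 encodes the mitochondrial tyrosyl-tRNA synthetase, and its interval (chr12:32754765-32756510) had CTCF of 98.2 and 97.8 CPM and then 19.0 and 11.5 CPM. YAP1 counts there were 55 and 61 and then 6 and 0, a log2 fold change of -2.32 (SE 0.66, edgeR adjusted p = 0.039). For YAP1 the YARS2 interval passed the count filter through its vehicle libraries alone. ZNF219, a zinc-finger gene (chr14:21103549-21104839), had H3K27ac of 81.9 and 105 CPM and then 61.2 and 52.4 CPM (log2 fold change -0.86, SE 0.10, edgeR adjusted p = 3.7e-08). CCDC142 (chr2:74481732-74483628) had an H3K27ac log2 fold change of -0.35 (SE 0.07, edgeR adjusted p = 0.00042). At ENSG00000256950 (chr12:121888318-121889411) neither mark passed, with log2 fold changes of -0.69 for RAD21 and -0.27 for H3K27ac.

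H3K27ac was tested in 2395 strong-loss intervals, of which edgeR called 99 lower and 123 higher. Among all 56601 intervals tested, 14.5% were lower and 8.59% higher, against 4.13% and 5.14% of the strong-loss intervals tested. The balance between directions was not stable: leaving out 1 library gave 107 to 191 calls, scaling to library totals gave 67 lower and 208 higher, GC-corrected offsets 128 and 90, and DESeq2 53 and 23. Over all intervals the same 3 settings called 10.5%, 13.4% and 14.0% lower and 14.2%, 8.31% and 4.46% higher. The most acetylated strong-loss intervals were the promoters of CAPN2, a calpain gene, SOS1, a Ras exchange factor gene, and CCDC142. At CAPN2 (chr1:223712141-223713649) H3K27ac was 124 CPM in both vehicle libraries and 150.4 and 155 CPM with sorbitol, while CTCF was 55.03 and 47.7 CPM and then 9.19 and 13.4 CPM. At SOS1 (chr2:39119855-39121407) H3K27ac was 131 and 115 CPM and then 149 and 154 CPM. Neither difference passed the test, with edgeR adjusted p = 0.089 and 0.10.

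The largest H3K27ac falls among the called intervals were at the promoter of the zinc-finger gene ZNF582 (60 and 53 counts, then 10 and 6, log2 fold change -3.29, SE 0.39, edgeR adjusted p = 2.8e-08) and at chr21:5795206-5795943, which has no unique 31-base word (log2 fold change -2.78). The promoter of ENSG00000231539 followed, at 14 and 11 counts and then 7 and 0. All of these intervals passed the count filter through their vehicle libraries alone. The largest rises started from almost no signal. At chr2:113370487-113370983, in an exon of ENSG00000289035, counts were 0 and 0 and then 19 and 11, at least 3.88-fold higher against 3 counts per vehicle library (edgeR adjusted p = 0.0004, and 0.000174 without the count filter, which it passed through its sorbitol libraries alone). In an intron of P3H2, a collagen prolyl hydroxylase gene, they were 0 and 1 and then 13 and 14. Near ECE1, the endothelin-converting enzyme gene, they were 0 and 3 and then 35 and 19. The P3H2 and ECE1 intervals also passed the count filter through their sorbitol libraries alone.

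YAP1 gave few calls. Of 492 strong-loss intervals tested, edgeR called 6 lower and 1 higher, against 1.49% and 5.34% of the 22765 intervals tested. The largest fall was at the promoter of the chemokine gene CXCL2 (chr4:74098675-74099807), with 33 and 22 counts and then 0 and 0, at least 3.64-fold lower (adjusted p = 0.015, and 0.00144 in the edgeR fit without the count filter, which it passed through its vehicle libraries alone). It was followed by chr3:58560623-58561229, with 50 and 32 counts and then 2 and 0, and by the promoter of RESF1, a retroelement silencing gene, with 32 and 33 and then 2 and 0. These intervals, too, passed the count filter through their vehicle libraries alone. The 1 rise was at HES3, which encodes a transcriptional repressor (chr1:6245084-6245504), where counts of 13 and 7 became 11 and 11 in shallower libraries, a log2 fold change of 2.12 (SE 0.62, edgeR adjusted p = 0.045, and 0.171 without the count filter). The promoter of RNVU1-7, a variant U1 small nuclear RNA gene, was among the 3 strong-loss intervals with the most vehicle YAP1, at 105 and 81.7 CPM and then 26.1 and 22.7 CPM (log2 fold change -1.25, adjusted p = 0.0084). Only 23.1% of its 31-base words are unique. Fitted log2 fold changes used TMM scaling and CPM used library totals, so a fitted change can differ from the ratio of CPM values. With scaling to library totals the YAP1 calls were 58 lower (11.8%) and 0 higher, below the 18.1% called lower among all intervals under that scaling. Without YAP1 vehicle library 1 or 2 there were 0 or 1 calls, and without sorbitol library 1 or 2 there were 31 or 11.

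Strong-loss intervals were scattered. The median distance from one to the next nearest was 181198 bp, and 7.61% had another within 10 kb, while 27.1% had another eligible interval within 10 kb that was not lost to this degree. Joined across gaps of up to 50 kb, they formed 3007 single intervals, 278 pairs, 43 groups of 3 and 4 groups of 4. The 3 larger groups were all on X: 13 intervals of 14 eligible ones in FIRRE (chrX:131704209-131831232), 6 of 8 in NBDY (chrX:56764297-56803696) and 5 of 7 in DANT1 and DANT2 (chrX:115892891-115959126).

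In these X-linked groups CTCF was 6.44-fold to 12.2-fold lower with sorbitol, while RAD21 was 1.13-fold lower in FIRRE, 1.39-fold lower in DANT1 and DANT2 and 1.27 times the vehicle level in NBDY. In FIRRE, summed CTCF was 1045 and 1027 CPM with vehicle and 121 and 118 CPM with sorbitol, while RAD21 was 166 and 121 CPM and then 127 in both libraries. In NBDY, CTCF was 838 and 898 CPM and then 76.8 and 65.8 CPM, and RAD21 was 108 and 81.4 CPM and then 94.3 and 146 CPM. In DANT1 and DANT2, CTCF was 322 and 305 CPM and then 53.8 and 43.5 CPM, and RAD21 was 77.5 and 63.1 CPM and then 56.9 and 44.2 CPM. Over all strong-loss intervals, summed CTCF was 6.63-fold and summed RAD21 3.00-fold lower. The RAD21 groups overlapped in FIRRE and NBDY and did not in DANT1 and DANT2.

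Of the 24 X-linked intervals, 10 could be tested for RAD21, and edgeR called 0, with 0 at an unadjusted p under 0.05 and a lowest adjusted p of 0.29. DESeq2 called 0 as well, with 1 lower at an unadjusted p under 0.05. The difference between these groups and the rest was not tested, since they were picked from the data. Their vehicle RAD21 was low for their CTCF: summed RAD21 CPM was 13.9%, 10.9% and 22.4% of summed CTCF CPM in the 3 groups, against 68.7% over all strong-loss intervals. H3K27ac fell in 9 of 20 tested X-linked intervals and rose in 0 by edgeR, where 14.5% of all tested intervals fell and 8.59% rose. DESeq2 called 7 lower and 0 higher, against 14.0% lower of all intervals with an adjusted p. Of the 9, 4 lie in NBDY in intervals where 0% of the 31-base words are unique, and 3 of these are copies of 1 sequence. In NBDY, 4 of 6 intervals have less than 50% unique 31-base words. In FIRRE the lowest uniqueness was 85.0%, and in DANT1 and DANT2 it was 95.5%.

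**Figure D5:**
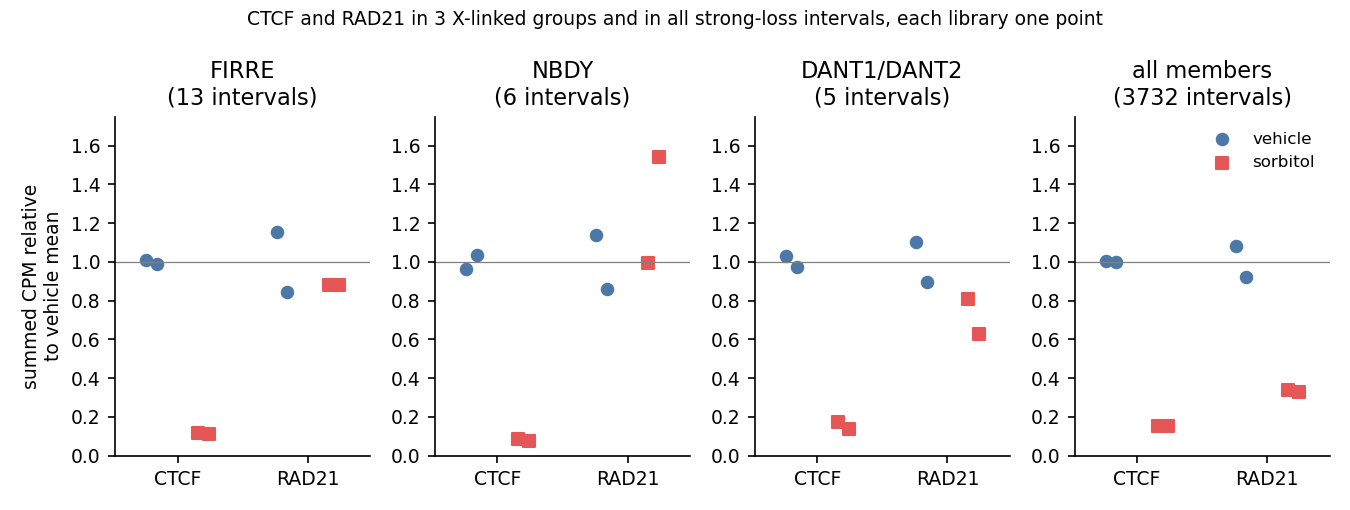
Summed CPM of CTCF and RAD21 in the 3 X-linked groups and in all strong-loss intervals, divided by the vehicle mean, with 1 point per library. After sorbitol the CTCF points lie near 0.1552 or lower in every panel, and the mean RAD21 is 0.882, 1.27 and 0.719 in the X-linked groups and 0.333 in all strong-loss intervals.

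The letters CCNCNNGATGGCA, read off 12 of the 24 best matches of the X-linked intervals after the sequences were seen, were then counted in all intervals on both strands. They were present in 17 of the 24 X-linked intervals, in 3.13% of the other 3708 strong-loss intervals, in 1.64% of the other eligible intervals and in 0.972% of all 73975. In central windows of 300 bases they were present in 8 of the 24 X-linked intervals, among them 4 of 13 in FIRRE and 0 of 6 in NBDY, in 3.19% of all strong-loss intervals and in 0.884% of all intervals. Outside the 3 groups, 116 of 480 eligible intervals with these letters showed strong loss, or 24.2%. Strong loss was seen in 13.7% of all eligible intervals and in 21.4% of the distal ones. As the letters were chosen from strong-loss intervals, these shares are a description.

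Gene lists gave few hits. Within 10 kb of a start site of the 16 CTCF and cohesin genes, 1 of 20 eligible intervals showed strong loss, in an exon of CTCFL, the germline paralog of CTCF. For 22 YAP target genes it was 2 of 37, for 16 osmotic stress and volume genes 1 of 29, for 39 HOX genes 3 of 43, and for 53 clustered protocadherin genes 0 of 9. Intervals so close to start sites are not a sample of all places: strong loss was found in 4.88% of eligible promoter intervals and 21.4% of distal ones. Near AMOTL2, an angiomotin family gene and YAP target (chr3:134378295-134378824), RAD21 counts were 19 and 13 and then 0 and 0 (edgeR adjusted p = 0.046, and 0.0187 without the count filter, which it passed through its vehicle libraries alone). DESeq2 gave it no adjusted p. In an intron of CRIM1, another YAP target, they were 20 and 9 and then 1 and 0 (adjusted p = 0.093). The HSPA1B interval lies in the exon of this heat shock gene, and its RAD21 counts of 11 and 3 and then 0 and 5 were too low to test. In the HOXD cluster (chr2:176097382-176098141), CTCF was 45.4 and 62.6 CPM and then 7.22 and 9.58 CPM, and RAD21 was 43.2 and 26.6 CPM and then 17.9 and 3.84 CPM (log2 fold change -1.41, SE 0.61, edgeR adjusted p = 0.18).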

How the data were processed

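The authors' deposited table gives raw read counts, as whole numbers, for peak intervals shared by all libraries. Per the submitters' processing notes, the tools included BWA 0.7.17, MACS2 2.2.6 and bedtools 2.31.1 with build hg38; whether peaks were called on pooled reads is not given in the sources used here. Interval starts were read as 0-based. Annotation was GENCODE 44. Each library's CPM used its total over chromosomes 1 to 22 and X outside the YAP1 gene. RAD21, H3K27ac and YAP1 were each fitted on their 4 libraries over the whole table with the edgeR 4.0.16 quasi-likelihood test in R 4.3.3 (two-sided, TMM scaling, filterByExpr at 10 counts, Benjamini-Hochberg adjustment), after a check on simulated counts. The standard error was derived from the F statistic. DESeq2 1.42.0, other scalings, filters, GC offsets (lowess span 0.3) and left-out libraries were alternatives. Uniqueness is the share of 31-base words found once in hg38 without alternate sequences. Named intervals are the 8 with the most vehicle CTCF, the 4 with the most RAD21, the 3 with the most H3K27ac and YAP1, the 6 leading coding promoters, up to 3 calls per target and direction, and 3 on each side of the limit; the leading unique sites and X-linked groups were added later. Members and lists were chosen with earlier results of these data known. Bounds against 3 counts cover counting error only.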

Additional observations from a re-analysis of the deposited data

How the results depend on the processing

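In every RAD21 fit tried, 0 strong-loss intervals were called higher. RAD21 calls numbered 110, and 19 with DESeq2, 10 with a mean of at least 50 counts, 39 with GC-corrected offsets and 390 in one fit on all 16 libraries; leaving out 1 library gave 42 to 201. H3K27ac calls numbered 222 in both directions, with more higher than lower. The balance turned to lower with DESeq2 (76 calls), GC-corrected offsets (218) and without either sorbitol library (107 to 191 calls over the 4 omissions). A mean of at least 50 counts left 123 of 345 tested, with 11.3% lower and 24.35% higher. Of all intervals tested in that setting, 24.6% were lower and 22.1% higher. One fit on all 16 libraries gave 74 of 3732. YAP1 calls numbered 7, and 4 with DESeq2, 58 with scaling to library totals, 15 without a count filter, 1 with a mean of at least 50 counts, 3 with GC-corrected offsets, 39 in one fit on all 16 libraries and 4 in intervals at least 90% unique, a limit chosen after seeing the data; leaving out 1 library gave 0 to 31, with 16 higher and 15 lower at the upper end. YAP1 was tested in 492 strong-loss intervals in the main fit, 3687 without a count filter and 3732 in the fit on all 16 libraries. Only 11 were tested with a mean of at least 50 counts. Shares over all intervals are given above for YAP1 in the main fit and with scaling to library totals. The cause of these shifts was not tested, apart from the smaller number of intervals under the stricter filter.

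Replicate numbers are shared across groups, but deviations of same-numbered libraries correlated at -0.005, -0.0054 and 0.0094 for RAD21, H3K27ac and YAP1, so the number only names a library. With the replicate number as a block, RAD21 calls were 35, all lower, or 3.37% of those tested against 0.429% of all intervals tested. H3K27ac calls were 226, with 4.13% lower and 5.30% higher, against 14.6% and 8.80% of all intervals tested. YAP1 calls were 5 of 492 tested, all lower. With the block and GC-corrected offsets together, RAD21 calls were 54, all lower, or 5.19% against 0.97% of all intervals tested. H3K27ac calls were then 221, with 5.43% lower and 3.80% higher, against 13.5% and 8.43% of all. YAP1 calls were 3 of 492 tested.

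The log2 ratio of the RAD21 share was -1.70, and -1.54 to -1.83 when 1 library was left out. It was -1.92 for the intervals 8-fold or more lower in CTCF, -1.44 for at most 0.5 and -1.46 in unique intervals. That of H3K27ac was 0.22 (0.21 to 0.24 with 1 library left out), and 0.18 for at most 0.5. That of YAP1 was -0.55 (-0.57 to -0.53), and -0.72 for at most 0.5, -0.81 with at least 50 CTCF counts and 0.01 in unique intervals.

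The number of strong-loss intervals depends on the scaling: TMM factors over the eligible intervals gave 1992, all among the 3732, and leaving out 1 CTCF library gave 3943 to 5501. Pseudocounts of 0.1 and 1 gave 4164 and 3184. Low RAD21 counts limit single intervals, since 2072 had 3 or fewer counts in each sorbitol library.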
